A study of Mus musculus with 8 samples.

Results

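T-box factors are transcription factors that bind DNA through a shared T-box domain, and several of them pattern the embryonic heart. Tbx5 and Tbx20 activate chamber genes, often together with Nkx2-5 and Gata4. Tbx2 and Tbx3 repress the same genes where the heart stays primitive, in the atrioventricular canal, outflow tract and conduction system. Tbx1 acts in the pharynx and the second heart field, Tbx18 in the venous pole and the epicardium, and Tbx4 mainly in the allantois, lung and hindlimb. The 7 genes Tbx1, Tbx2, Tbx3, Tbx4, Tbx5, Tbx18 and Tbx20 were taken by their names in the scanner files. They are carried by 9 probes of 55583, and they are 7 of 34736 gene names with a value.

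The study profiled RNA of mouse embryonic stem cells on single-colour Agilent arrays, to ask how a mutation of Nkx2-5 alters expression during cardiac differentiation. The 4 groups, with 2 biological replicates each, were R141C day 6, wild type day 6, R141C day 0 and wild type day 0. R141C cells were heterozygous for the Nkx2-5 change R141C. Day 0 cells were undifferentiated, and day 6 cells came from embryoid bodies kept 2 days in hanging drops of 800 cells and 3 days in suspension, then plated at day 5 for 24 hours. The labels name no second line or clone of either genotype, so genotype and line cannot be told apart. Nothing says whether replicates were grown apart in time, so p-values measure the spread between these cultures.

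Levels below are log2 of the processed signal with the 75th percentile of each array set to 0, and each gene is given by its brightest probe on average. A difference is the mean log2 signal of the first group minus that of the second, tested with limma across 25892 genes and called a change when the p adjusted over all of them was under 0.05. Between 55.8% and 70.5% of probes were well above background per array. The array of R141C day 6 replicate 2 correlated better with the 2 wild-type day 6 arrays (r = 0.988 and 0.989, across genes) than with its own replicate (r = 0.982), and that of wild type day 0 replicate 1 better with the R141C day 0 arrays (r = 0.991 and 0.987) than with its own replicate (r = 0.983). Of 9 markers of embryonic stem cells, 9 fell by day 6 in each genotype. Of 9 cardiac progenitor markers, 6 rose in R141C and 7 rose in wild type. All arrays were on 1 slide, with day 6 in one column, day 0 in the other, and wild type above R141C, so slide position and group cannot be told apart.

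The mutated gene itself, the homeobox factor Nkx2-5, was measured by a probe that does not show the point change. Its log2 signal was 1.53 and 1.58 in R141C day 6, 1.93 and 1.79 in wild type day 6, 1.84 and -0.77 in R141C day 0, and -1.27 and -2.02 in wild type day 0. R141C day 0 replicate 1 thus had as much Nkx2-5 signal as the day 6 cultures, while replicate 2 of that group lay nearer to wild type. Nkx2-5 rose by day 6 in wild type (difference 3.50, adjusted p = 0.019), a call that ended on dropping wild type day 0 replicate 2 (adjusted p = 0.0880) or either wild type day 6 array (0.0902 and 0.0891). At day 6 its genotype difference was -0.30 (adjusted p = 0.927).

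**Figure D1:**
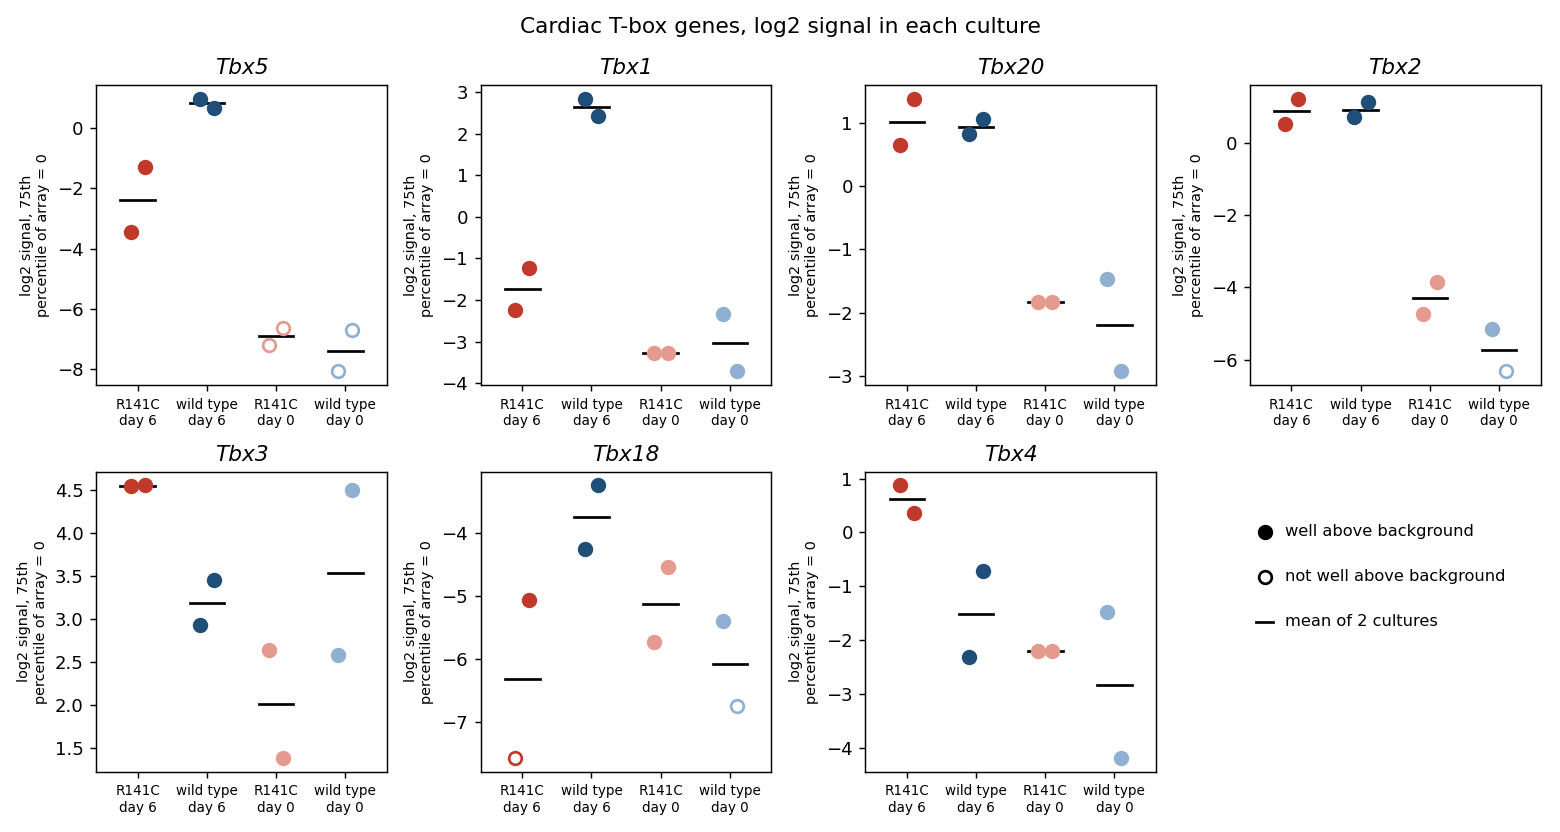
Log2 signal of the 7 cardiac T-box genes in each culture, with the 75th percentile of the array at 0; points are cultures, filled where the probe was well above background, and bars are means of 2 cultures. Tbx5 and Tbx1 sit lower in R141C than in wild type at day 6, while Tbx20 and Tbx2 overlap between genotypes at that day.

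At day 6 the genotypes differed most in Tbx1 and Tbx5, both lower in R141C, but none of the 7 genes passed the adjusted test of limma. Over all genes 0.0657% passed it (17 of 25892). At an unadjusted p under 0.05 there were 4 of the 7, against 8.54% of all genes. Groups did not overlap for 5 of the 7, lower in R141C for Tbx1, Tbx5 and Tbx18 and higher for Tbx3 and Tbx4, against 44.3% of all tested genes (16.5% lower and 27.8% higher). The median difference of the 7 was -0.05, against 0.07 over all genes. RNA came from whole cultures, so fewer cells of a type and less RNA per cell cannot be told apart.

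Tbx1, a pharyngeal and second heart field factor, is measured by 1 probe at chr16:18581807-18581866 (mm9, minus strand), named for transcript variant 2. Tbx1 read -2.24 and -1.22 in R141C day 6, 2.84 and 2.43 in wild type day 6, -3.28 and -3.27 in R141C day 0, and -2.34 and -3.72 in wild type day 0, well above background on all 8 arrays. Wild type day 6 stood far above every other culture, R141C day 6 came next, and the day 0 groups overlapped. The day 6 difference was -4.37 (SE 0.51, 95% interval -5.59 to -3.15), which is 20.6-fold lower in R141C, with an adjusted p of 0.0710. Across the alternatives that kept all arrays, the difference ranged from -4.45 to -4.11. The adjusted p of limma ranged there from 0.0328, under normexp background correction, to 0.189. With 1 array left out the difference ranged from -4.88 to -3.86. At day 0 the difference was -0.25 (adjusted p = 0.9995).

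The promoter windows of Tbx1 are shown because this gene had the largest day 6 genotype difference of the 7. RefSeq windows (GRCm38.p6) were matched for 4 of the 7 genes (Tbx1, Tbx4, Tbx18 and Tbx20), 5 windows in all. The 250 bases before each start were searched on both strands for 3 motifs. The Nkx2-5 motif, spelled TNAAGTG, is in 10.1% of 32851 promoter windows. The T-box motif, spelled AGGTGTNA, is in 2.68% of them. The GATA motif, spelled AGATAA, is in 9.99%, and 20.8% hold at least 1 of the motifs, which do not overlap in the windows printed. Of the 5 member windows 1 held a match, the T-box motif 76 to 69 bases before the more upstream Tbx1 start, printed in capitals. Both sequences run 5′ to 3′ on the minus strand.
Tbx1, chr16:18590672-18590921: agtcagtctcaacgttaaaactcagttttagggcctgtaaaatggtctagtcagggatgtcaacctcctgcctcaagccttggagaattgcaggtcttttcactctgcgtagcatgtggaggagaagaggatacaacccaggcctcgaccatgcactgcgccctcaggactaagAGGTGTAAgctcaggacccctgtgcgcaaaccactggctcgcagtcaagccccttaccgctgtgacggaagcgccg
Tbx1, chr16:18588900-18589149: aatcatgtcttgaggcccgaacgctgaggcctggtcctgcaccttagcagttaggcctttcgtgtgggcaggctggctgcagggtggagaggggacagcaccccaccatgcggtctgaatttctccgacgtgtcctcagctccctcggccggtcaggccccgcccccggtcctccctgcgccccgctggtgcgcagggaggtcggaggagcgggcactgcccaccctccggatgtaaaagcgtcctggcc
A match describes the letters of a window and shows no binding.

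Tbx5, which activates atrial and left ventricular genes, is measured by 1 probe at chr5:120334087-120334146 (mm9, plus strand). Its log2 signal was -3.45 and -1.30 in R141C day 6, 0.98 and 0.67 in wild type day 6, -7.18 and -6.63 in R141C day 0, and -8.07 and -6.68 in wild type day 0. It was well above background on all 4 day 6 arrays and on none of the day 0 arrays. The day 6 groups did not overlap, but the R141C replicates lay far apart, with an SD of 1.52 against 0.22 in wild type. The difference was -3.20 (SE 0.74), 9.21-fold lower in R141C, with an adjusted p of 0.333. It was -2.13 on dropping R141C day 6 replicate 1 and -4.28 on dropping replicate 2, and passed in neither case (adjusted p = 0.618 and 0.0671).

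Cardiomyocyte markers were read beside Tbx1 and Tbx5. Of 12 such markers 12 were lower in R141C at day 6, with a median difference of -3.52, and none passed the test. Their summed signal, in multiples of the array's 75th percentile, was 11.8 and 154 in R141C day 6, 370 and 472 in wild type day 6, 13.7 to 39.8 in R141C day 0 and 6.43 to 18.7 in wild type day 0. Against the wild-type day 6 mean, their median was -5.43 in R141C day 6 replicate 1 and -1.49 in replicate 2. Tbx1 stood at -4.88 and -3.86 in these cultures, and Tbx5 at -4.28 and -2.13. R141C day 6 replicate 1, the lower of its pair in these markers, was also the lower in Tbx1, Tbx5, Tbx18, Tbx2 and Tbx20. It was barely the lower in Tbx3 (4.549 against 4.560) and the higher in Tbx4. No marker of the list was below background in wild type day 6, and 11 or 12 of 12 were well above it in R141C day 6. Of 6 tested neuroectoderm markers 6 were lower in R141C at day 6 (median -1.55), with none passing. Likewise 7 of 9 cardiac progenitor markers (median -0.97), 8 of 11 genes of the first heart field and atrial chamber (median -2.09) and 6 of 7 endoderm markers (median -0.58) were lower in R141C at day 6, none called. The first heart field list shares Nppa, Myl4, Myl7 and Myl2 with the cardiomyocyte markers. It shares Nkx2-5 and Smarcd3 with the cardiac progenitor markers, so these lists do not count separate genes. Set against the wild-type mean, the endoderm markers had a median of -1.50 in R141C day 6 replicate 1 and 0.44 in replicate 2. The other marker lists were split or went the other way, none called. Of 9 embryonic stem cell markers 8 were higher in R141C at day 6 (median 0.29). Lower were 4 of 7 endothelial (median -0.01), 3 of 6 neural crest (0.04), 4 of 7 paraxial mesoderm and limb (-0.02) and 4 of 7 primitive blood markers (-0.72). The part of these cell types in the Tbx1 and Tbx5 differences was not tested.

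Tbx20, a chamber factor that also restrains Tbx2, is measured by 3 probes, each named for another transcript variant. The brightest, at chr9:24527750-24527809 (mm9, minus strand), read 0.65 and 1.38 in R141C day 6, 0.82 and 1.06 in wild type day 6, -1.84 and -1.83 in R141C day 0, and -1.47 and -2.93 in wild type day 0. The genotypes overlapped on both days, with a day 6 difference of 0.08 (95% interval -1.08 to 1.23, adjusted p = 0.974), a sign that turned to -0.011 under a median shift. The probe for variant 3, at chr9:24563177-24563236, is shown because it lies furthest along the gene from the brightest of the 3 and read the same pattern.
Tbx20, probe for variant 3: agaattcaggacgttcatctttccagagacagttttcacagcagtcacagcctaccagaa
It gave day 6 differences between genotypes of 0.19, and the probe for variant 2 gave 0.06. Both spread more widely between the R141C day 6 replicates than the brightest probe did (-1.69 and 0.35 for variant 3, -1.58 and 0.89 for variant 2).

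Tbx2, a repressor of chamber genes, is measured at chr11:85655391-85655450 (mm9, plus strand). Tbx2 read 0.51 and 1.21 in R141C day 6, 0.71 and 1.11 in wild type day 6, -4.74 and -3.85 in R141C day 0, and -5.14 and -6.32 in wild type day 0, where replicate 2 was not well above background. Like Tbx20, it overlapped between genotypes at day 6, with a difference of -0.05 (95% interval -1.22 to 1.13, adjusted p = 0.984). Tbx2 was the 1 gene of the 7 whose genotypes did not overlap at day 0, higher in R141C by 1.43 (adjusted p = 0.9995).

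Tbx3, a repressor that embryonic stem cells also express as part of their self-renewal network, is measured at chr5:120134511-120134570 (mm9, plus strand). Its log2 signal was 4.55 and 4.56 in R141C day 6, 2.93 and 3.46 in wild type day 6, 2.64 and 1.39 in R141C day 0, and 2.58 and 4.50 in wild type day 0. R141C day 6 stood highest by its mean, but wild type day 0 replicate 2 nearly reached it and stood far above the other wild type day 0 culture. Of 12 genes of naive pluripotency 9 fell by day 6 in R141C and 10 in wild type, and at day 0 11 of the 12 were lower in R141C (median -0.68), none of them called. At day 6, 9 of the 12 were higher in R141C (median 0.25), again none called. The day 6 genotype difference of Tbx3 was 1.36 (SE 0.67, adjusted p = 0.652) and that at day 0 was -1.53 (adjusted p = 0.9995).

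Tbx18, of the venous pole and epicardium, is measured at chr9:87599514-87599573 (mm9, minus strand) and was dim throughout. Tbx18 read -7.58 and -5.06 in R141C day 6, -4.26 and -3.25 in wild type day 6, -5.73 and -4.54 in R141C day 0, and -5.40 and -6.76 in wild type day 0. The probe was not well above background in 1 culture of R141C day 6 (replicate 1) and 1 of wild type day 0 (replicate 2). Wild type day 6 was highest, and the other 3 groups overlapped. The day 6 difference was -2.56 (SE 0.90, adjusted p = 0.5001) and was -0.76 under normexp correction. Dropping R141C day 6 replicate 1 gave -1.31, and dropping replicate 2 gave -3.82.

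Tbx4, of the allantois, lung and hindlimb, is measured at chr11:85729510-85729569 (mm9, plus strand). Its log2 signal was 0.88 and 0.36 in R141C day 6, -2.32 and -0.71 in wild type day 6, -2.20 and -2.20 in R141C day 0, and -1.48 and -4.19 in wild type day 0. R141C day 6 was highest, and the other 3 groups overlapped. The day 6 difference was 2.13 (95% interval 0.0049 to 4.25), 4.38-fold higher in R141C, with an adjusted p of 0.585. Dropping wild type day 6 replicate 1 gave 1.33, and dropping replicate 2 gave 2.93. Of 13 genes of limb, allantois and lateral plate 9 were higher and 4 lower in R141C at day 6 (median 0.61), and none passed the test. In a list chosen for Tbx4, the 5′ Hox genes Hoxa13 and Hoxc10, named after their values were seen, differed by 2.31 (adjusted p = 0.370) and 2.52 (adjusted p = 0.613).

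**Figure D2:**
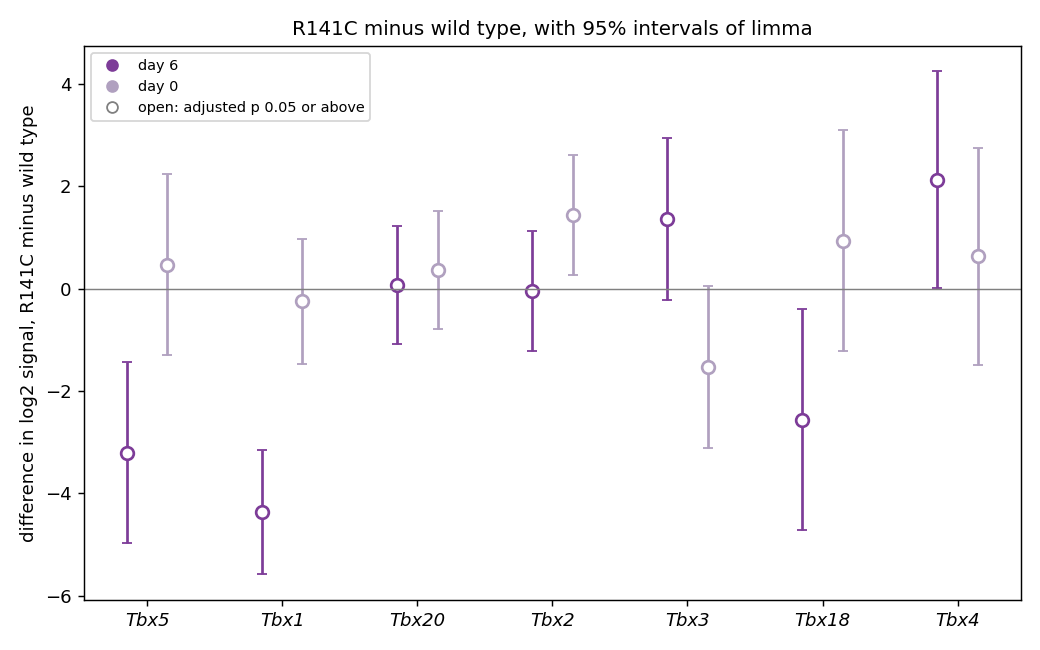
Difference in log2 signal, R141C minus wild type, for the 7 genes at day 6 (dark) and day 0 (light), with 95% intervals of limma; open points have an adjusted p of 0.05 or above. All points are open, and the day 6 values run from -4.37 for Tbx1 to 2.13 for Tbx4.

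At day 0 none of the 7 genes passed the test of limma, and 0.00% of all genes did (0 of 25892). At an unadjusted p under 0.05 there was 1 of the 7 (Tbx2), against 4.50% of all genes (1165). Of the 7, 6 overlapped between genotypes and 1, Tbx2, did not, against 28.8% of all genes whose groups did not overlap (14.5% higher in R141C). Whether the effect of genotype changed with the day was tested as an interaction, which was called by limma for none of the 7 and for 0.00% of all genes. At an unadjusted p under 0.05 there were 4 of the 7 (Tbx1, Tbx5, Tbx3 and Tbx18), against 5.64% of all genes (1460). For Tbx1 the day 6 difference minus the day 0 difference was -4.12 (adjusted p = 0.465), for Tbx5 -3.68 (0.755), for Tbx18 -3.50 (0.853), for Tbx2 -1.48 (0.886), for Tbx20 -0.29 (0.964), for Tbx4 1.49 (0.922) and for Tbx3 2.89 (0.812).

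Differentiation itself moved most of these genes. In R141C 4 of the 7 rose by day 6 (Tbx2, Tbx5, Tbx20 and Tbx3), against 15.6% of all genes called and 7.60% called higher. In wild type 4 of the 7 rose by day 6 (Tbx1, Tbx2, Tbx5 and Tbx20), against 24.0% of all genes called and 11% called higher. No member fell in either. The median change of the 7 was 2.82 in R141C and 3.14 in wild type, against -0.03 and -0.12 over all genes. Day 6 and day 0 did not overlap for 6 of the 7 in R141C, against 56.0% of all genes, and for 5 of the 7 in wild type, against 71.3%. All of these were higher at day 6, as were 25.6% of all genes in R141C and 29.8% in wild type that did not overlap.

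Tbx5 rose in both genotypes over day 0 cultures in which it was not well above background, so its folds are given as lower bounds. The fitted difference was 4.53 in R141C (adjusted p = 0.0106), or at least 12.3-fold higher at day 6. In wild type it was 8.20 (adjusted p = 0.0010), or at least 143-fold. Leaving out R141C day 0 replicate 1 ended the R141C call (adjusted p = 0.0668). The R141C difference became 5.60 on dropping R141C day 6 replicate 1 and 3.45 on dropping its replicate 2, and the wild-type one 7.51 and 8.90 on dropping wild type day 0 replicates 1 and 2.

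Tbx2 rose by 5.16 in R141C (SE 0.49, adjusted p = 0.0018), which is 35.6-fold, and by 6.64 in wild type (SE 0.49, adjusted p = 0.00059), which is 99.4-fold. Without wild type day 0 replicate 1 the wild-type value was 149.5-fold, and without replicate 2 it was 66.1-fold. Tbx20 rose by 2.86 in R141C (7.24-fold, adjusted p = 0.0120) and by 3.14 in wild type (8.83-fold, adjusted p = 0.0060). Its R141C call ended on dropping either R141C day 0 array (adjusted p = 0.0656 and 0.0526) or R141C day 6 replicate 2 (0.0532). The wild-type value was 14.7-fold without wild type day 0 replicate 1 and 5.31-fold without replicate 2. By the probe for variant 2 the rise was 4.07 in R141C and 4.67 in wild type, and by that for variant 3 it was 3.42 and 3.77, each called.

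Tbx1 differed by 1.54 in R141C, where it did not pass (adjusted p = 0.0920) unless either wild type day 0 array was dropped (0.0438), and rose by 5.66 in wild type (50.7-fold, adjusted p = 0.0010). The wild-type value was 81.7-fold without wild type day 0 replicate 1 and 31.4-fold without replicate 2. Tbx3 rose by 2.54 in R141C (5.82-fold, adjusted p = 0.0471), close to the threshold, and differed by -0.35 in wild type (adjusted p = 0.743). The Tbx3 call was lost on leaving out either R141C day 0 array (3.76-fold and 8.996-fold, adjusted p = 0.181 and 0.0747), either R141C day 6 array (0.139 and 0.128) or either wild type day 6 array (0.0798). Tbx4 differed by 2.82 in R141C (adjusted p = 0.0810) and by 1.32 in wild type (adjusted p = 0.327). It passed in R141C under normexp (0.0409), with only the arrays compared (0.0091) or on dropping either wild type day 0 array (0.0218), and in wild type on dropping wild type day 0 replicate 1 (2.68, adjusted p = 0.0437). Tbx18 differed by -1.18 in R141C (adjusted p = 0.425) and by 2.32 in wild type (adjusted p = 0.110), the last passing on dropping either R141C day 6 array (0.0499).

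**Figure D3:**
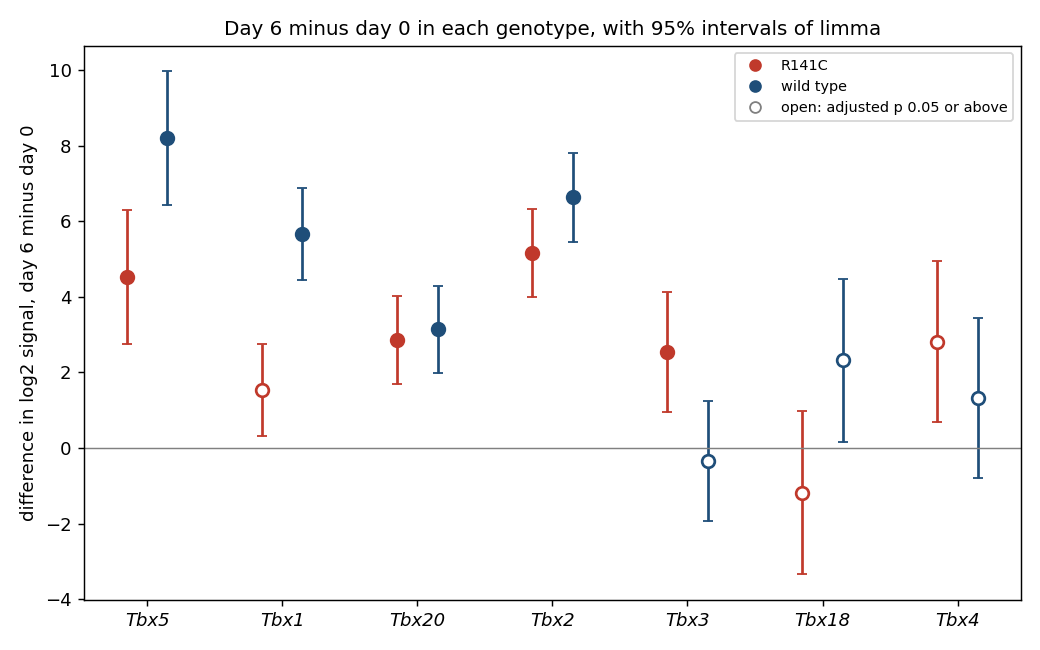
Difference in log2 signal, day 6 minus day 0, for the 7 genes in R141C (red) and wild type (blue), with 95% intervals of limma; filled points have an adjusted p under 0.05. Tbx5, Tbx20 and Tbx2 are filled in both genotypes, Tbx1 in wild type and Tbx3 in R141C.

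Genes lying beside the members were read from probes within 100 kb. Tbx2 and Tbx4 neighbour each other, 74.1 kb apart by their probes, yet at day 6 the genotypes differed by -0.05 in Tbx2 and by 2.13 in Tbx4. Of the 41 other probes in these windows, 15 were the brightest probe of a tested gene, and 1 of them differed between genotypes at day 6. That probe belongs to a transcript which the files describe as a lincRNA on the reverse strand, and lies 53.1 kb 5′ of the Tbx5 probe at chr5:120280943-120281002 (mm9). Its sequence is shown because it is the 1 neighbour that was called.
lincRNA near Tbx5, minus strand: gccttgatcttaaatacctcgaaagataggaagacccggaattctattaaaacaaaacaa

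This probe of the lincRNA read -5.46 and -4.54 in R141C day 6, -1.03 and -1.22 in wild type day 6, -7.92 and -8.16 in R141C day 0, and -8.28 and -8.70 in wild type day 0. It was well above background on both wild type day 6 arrays and on R141C day 6 replicate 2, and on no other array. The probe thus entered the test only through wild type day 6, the group in which it was highest. At day 6 it was lower in R141C by a difference of -3.87 (adjusted p = 0.0293), or 14.6-fold with the dim R141C day 6 replicate 1 included. That call was lost with no filter on dim probes (adjusted p = 0.0525), with trend and robust settings (0.0781), with only the arrays compared (0.189) and on leaving out either wild type day 0 array (0.0693), either R141C day 0 array (0.0841), either wild type day 6 array (0.245 and 0.233) or R141C day 6 replicate 1 (0.165). By day 6 the probe rose by a fitted 3.04 in R141C (adjusted p = 0.0029). No bound is given there, since R141C day 6 replicate 1 was itself dim. In wild type it rose by 7.37 (adjusted p = 0.00025), or at least 40.1-fold. The correlation with Tbx5 across the 8 arrays was r = 0.976, a description that rests on the same arrays and the same 4 groups. Of the other probes of this transcript, that at chr5:120253825-120253884 averaged -5.32 in R141C day 6 and -5.86 in wild type day 6. It was well above background on 1 array of each of these groups. That at chr5:120253932-120253991 averaged -7.01 and -7.51 and was well above background on no array. Their r with Tbx5 was 0.271 and -0.598, so the drop and the likeness to Tbx5 rest on the called probe alone. Beside Tbx1, the 4 tested neighbours differed between genotypes at day 6 by -0.18 (Gnb1l), 0.48 (Gp1bb), -0.26 (Septin5) and -0.67 (a transcript named only by its Ensembl identifier), none called.

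**Figure D4:**
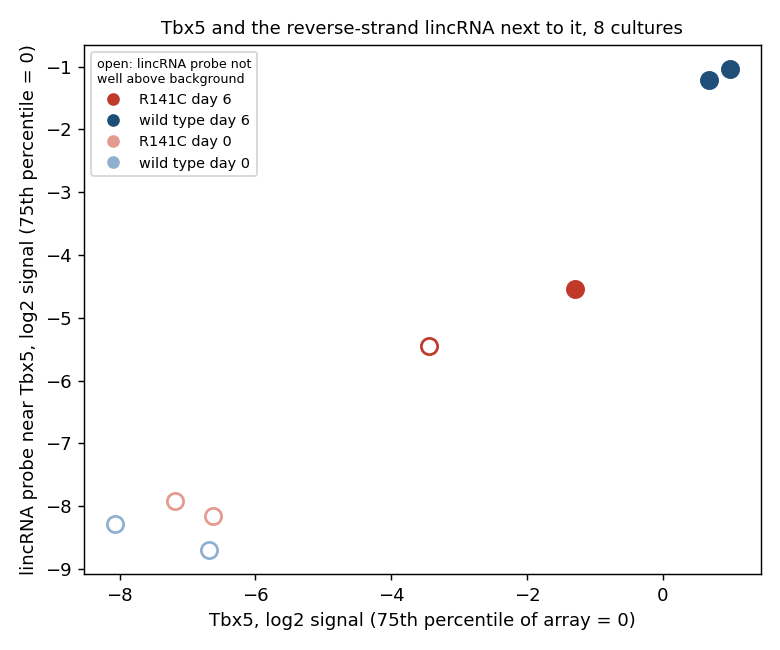
Log2 signal of the lincRNA probe against that of Tbx5 in the 8 cultures, with the 75th percentile of each array at 0; points are open where the lincRNA probe was not well above background. The day 0 cultures lie at the lower left, the R141C day 6 cultures between, and the wild type day 6 cultures at the upper right.

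Genes reported as targets of Tbx5 were read beside it. Of 16 tested targets 10 were lower in R141C at day 6, with a median difference of -1.09 against 0.07 over all genes, and none passed the test. Whether any passed depended on the arrays kept. Against the wild-type mean, the median over the 16 targets was -1.65 in R141C day 6 replicate 1 and -0.89 in replicate 2. Nppa and Wnt2, both secreted products, were named after their values were seen. Nppa, which encodes atrial natriuretic peptide, read -4.27 and -2.21 in R141C day 6, 1.09 and 1.33 in wild type day 6, -3.79 and -1.46 in R141C day 0, and -2.94 and -4.10 in wild type day 0, a day 6 difference of -4.45 (adjusted p = 0.280). Wnt2, a secreted signal of the posterior second heart field, read -2.74 and -2.01 in R141C day 6, and 0.00 and 0.19 in wild type day 6. Its difference was -2.47 (adjusted p = 0.0739), and ranged from -2.84 to -2.10 with 1 array left out. By the rule of highest signal, Myh6, the atrial myosin heavy chain, differed by -3.89 (adjusted p = 0.413) and Gli1, a Hedgehog effector, by -0.89 (adjusted p = 0.726). Nppa and the sarcomere genes Myl7, Tnnt2 and Myh6 of this list are also cardiomyocyte markers, so the list and that marker list share members.

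**Figure D5:**
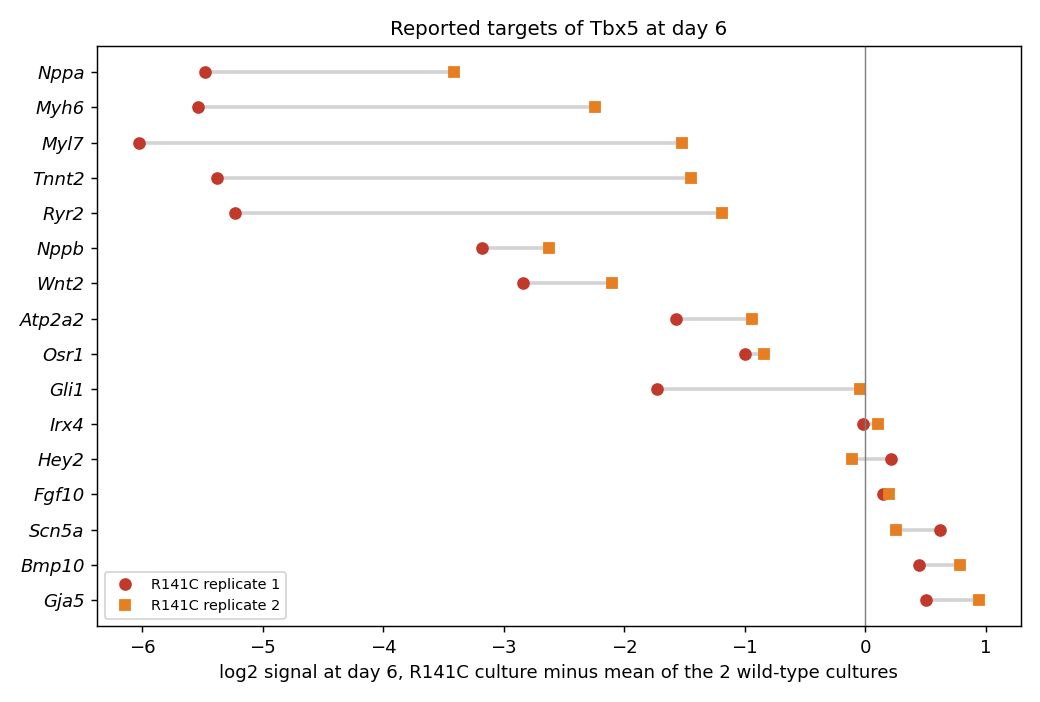
Day 6 log2 signal of each R141C culture minus the mean of the 2 wild-type cultures, for the 16 tested targets of Tbx5; circles are R141C replicate 1 and squares replicate 2. In Nppa, Myh6, Myl7, Tnnt2 and Ryr2 replicate 1 lies lowest, from -6.03 to -5.23, and replicate 2 from -3.42 to -1.19.

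The promoter of Nppa is shown because it holds the motifs of both factor families side by side, a T-box match on the reverse strand 250 to 243 bases before the start and an Nkx2-5 match 241 to 235 bases before it. Capitals mark both matches, and the sequence runs 5′ to 3′ on the plus strand (GRCm38.p6).
Nppa, chr4:148000472-148000721: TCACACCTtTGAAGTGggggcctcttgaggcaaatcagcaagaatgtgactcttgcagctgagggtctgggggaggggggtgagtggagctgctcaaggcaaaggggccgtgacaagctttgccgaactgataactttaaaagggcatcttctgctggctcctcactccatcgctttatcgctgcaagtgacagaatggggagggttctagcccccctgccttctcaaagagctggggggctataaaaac

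During differentiation 6 of the 16 Tbx5 targets rose in R141C and 8 in wild type, and none fell. In R141C these included Wnt2 (at least 12.3-fold), Fgf10 (4.82), a growth factor of the second heart field, Tnnt2 (4.66), cardiac troponin T, and Hey2 (4.48), a ventricular repressor, all as log2 differences except Wnt2. In wild type they included Tnnt2 (9.15), Wnt2 (at least 93.5-fold), Myl7 (6.87), the atrial myosin light chain, and Osr1 (4.95). Nppa differed by -0.61 in R141C (adjusted p = 0.695) and rose by 4.73 in wild type (adjusted p = 0.013), a call that ended on dropping wild type day 0 replicate 2 (0.0661) or either wild type day 6 array (0.0621 and 0.0765). The Tnnt2 call in R141C was lost without any one of the wild type day 0 (0.0507), R141C day 0 (0.139 and 0.133) or wild type day 6 arrays (0.0697), while its fold was 98.9 on dropping R141C day 6 replicate 1 and 6.49 on dropping the other. The wild-type fold of Tnnt2 was 878 and 369 on dropping wild type day 0 replicates 1 and 2. The Myl7 call in wild type was lost without wild type day 0 replicate 2 (0.0525) or either wild type day 6 array (0.0553 and 0.0637).

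No target reported for the other members passed the test between genotypes at day 6. Of 12 tested Tbx1 targets 5 were lower in R141C (median 0.16), of 13 targets of Tbx2 and Tbx3 7 were lower (median 0.00), and of 12 Tbx20 targets 6 were lower (median 0.09). For the targets of Tbx2 and Tbx3, whether any passed depended on the arrays kept. By day 6, 6 Tbx1 targets rose and 2 fell in R141C, while 7 rose and 1 fell in wild type. The R141C count of 8 calls was 3 and 4 on dropping R141C day 0 replicates 1 and 2 and 4 on dropping R141C day 6 replicate 2, and the wild-type count of 8 was 5 on dropping wild type day 6 replicate 2. Foxa2, a forkhead factor of endoderm, rose by 5.59 in R141C (83.6-fold and 27.7-fold on dropping R141C day 6 replicates 1 and 2) and by 7.13 in wild type, and Gbx2, a homeobox gene of the pharyngeal region, fell by 3.50 in R141C and by 3.25 in wild type. Of the targets of Tbx2 and Tbx3, 2 rose and 1 fell in R141C, while 6 rose and 1 fell in wild type, the 7 wild-type calls becoming 3 on dropping either wild type day 6 array. Gja5, the gap junction protein connexin 40, rose by 3.69 in R141C and 2.89 in wild type, and Has2, a hyaluronan synthase of the cardiac jelly, by 2.46 and 3.64. Of the Tbx20 targets, 6 rose and 1 fell in each genotype, with Isl1, a progenitor homeobox factor, up by 5.58 in R141C and 6.72 in wild type.

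Partners and regions of the heart field were described in the same way. Of 15 partners of the cardiac T-box factors, 6 rose and 1 fell by day 6 in R141C, and 6 rose in wild type. The 7 calls in R141C became 4 on dropping R141C day 0 replicate 2 or R141C day 6 replicate 2. Hand2 rose by 7.49 in R141C and 9.15 in wild type, Gata6 by 5.80 and 7.17, and Gata4 by 4.94 and 5.47, and none of the 15 passed between genotypes at day 6. Of 16 second heart field and pharyngeal genes, 13 were lower in R141C at day 6 (median -0.99, none called), and by day 6 10 rose and 1 fell in R141C while 13 rose and 1 fell in wild type. The 11 calls in R141C became fewer on dropping R141C day 0 replicate 1 or 2, and whether any gene passed between genotypes at day 6 also depended on the arrays kept. Foxc2, a forkhead factor reported upstream of Tbx1, read -1.47 and -1.10 in R141C day 6 and 2.55 and 2.15 in wild type day 6, a difference of -3.63 (adjusted p = 0.391) in a gene named after its values were seen. Of 11 epicardial genes 10 were lower in R141C at day 6 (median -0.48), and of 10 sinus node and conduction genes 8 were lower (median -0.42), with none called. Hcn4 and Shox2, defining genes of the sinus node, were not well above background on any array.

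The genes whose pattern over the 8 arrays was most like that of each member were found among 17700 tested genes with a current symbol, as a description with no test. For Tbx1 they were Foxd2 (r = 0.993), Alx1 (0.989) and Zfp319 (0.981), and for Tbx5 they were Lrrc56 (0.996), Sobp (0.995) and Dync2h1 (0.994). For Tbx2 they were Pi16, Dpysl2 and Cacfd1 (0.996 to 0.997), for Tbx20 Cavin2, Slc2a12 and Podxl (0.993 to 0.995), and for Tbx18 Ten1, Ror1 and Lrif1 (0.968 to 0.984). For Tbx3 they were Bckdk (0.978), BC040756 (0.974) and 4831440E17Rik (0.950), and for Tbx4 Tab2 (0.964), C5ar2 (0.961) and Atp9b (0.959). Among the members, r was 0.982 between Tbx2 and Tbx20, 0.913 between Tbx2 and Tbx5, and 0.901 between Tbx1 and Tbx5, while Tbx3 and Tbx18 had -0.49. These values share the same 8 arrays and the day 0 to day 6 contrast.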

How the data were processed

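One array was read per culture. Per the file headers, Agilent Feature Extraction 11.5.1.1 was used, while the submitters' processing notes give 10.5.1.1. The deposited processed signal is an intensity that the scanner software corrected for background and for gradients across the array. The deposited mean signal and local background intensity served in normexp, the deposited flags (other, 0 or 1) marked outliers and dim spots, and the deposited series matrix holds log2 values that correlated with those signals at r of 0.9995 or more. Its column medians were 8.99 to 9.04, and its normalization and filter are not given in the sources used here.

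On each array 131 to 251 spots marked as outliers were dropped, 98 probes were lost in this way, and no spot was saturated. Spots of a probe were averaged, and log2 of the signal was shifted to a 75th percentile of 0. Testing needed a brightest probe well above background in both replicates of some group, true of 74.5% of names. limma 3.58.1 in R 4.3.3 fitted 4 group means on 8 arrays, with 4 residual and 2.70 prior degrees of freedom, two-sided with Benjamini-Hochberg adjustment, in 5 comparisons. Folds against a group that was nowhere above background use, on each array of it, the larger of the probe's signal and the array's lowest signal above background. They are bounds in this sense only, since a dim probe can exceed that lowest signal, as Tbx5 did in wild type day 0 replicate 2. Figures used Python 3.11.15 and matplotlib 3.10.9. Precision is limited by the number of arrays.

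The members and gene lists were chosen with earlier results of these data known, so lists are described by counts and medians. From each list up to 4 called genes with the largest change were named or, where none was called, up to 2 with the highest signal. Any other gene is marked as named after its values were seen. As alternatives, the data were refitted with a median shift, quantile normalization, normexp with an offset of 50, the series matrix, no filter, a filter on all 8 arrays, robust settings with a trend, fits to the compared arrays alone, a replicate block, genes as means over their probes, and each array left out. The other Tbx20 probes and an exchange of the wild-type day 0 numbers were added after the data had been seen.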

Additional observations from a re-analysis of the deposited data

How the results depend on the processing

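The day 6 count of 17 genes over the whole array rested on the setting: it was 5 under normexp, 1 with the series matrix, and 0 with no filter, with the filter on all 8 arrays, with trend and robust settings, with only the arrays compared and with a replicate block, and 0 to 117 when 1 array was left out. The count of T-box genes called between genotypes at day 6 was 1 under normexp and 0 to 1 with 1 array left out. At day 0 the count over all genes was 1 under normexp and 1 with the filter on all 8 arrays. Quantile normalization called 7 genes and the series matrix 1 for the difference of genotype effects. With the filter on all 8 arrays, which tests 4 of the 7 and neither Tbx2 nor Tbx5, 2 T-box genes were called in each genotype by day 6. With 1 array left out, the T-box genes called by day 6 were 1 to 6 in R141C and 4 to 5 in wild type, and all genes 1619 to 4262 and 2152 to 6412. With only the arrays compared, 2458 genes were called in R141C.

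Signs turned for differences that were not called with all arrays, namely Tbx20 between genotypes at day 6 under a median shift (-0.011), Tbx5 between genotypes at day 0 under normexp (-0.023) and Tbx18 by day 6 in R141C under normexp (0.026), and, with 1 array left out, for Tbx2 (-0.40 to 0.31) and Tbx20 (-0.29 to 0.44) between genotypes at day 6, Tbx1 (-0.94 to 0.44), Tbx4 (-0.72 to 1.99), Tbx5 (-0.22 to 1.16) and Tbx20 (-0.37 to 1.09) at day 0, Tbx3 (-1.31 to 0.61) and Tbx4 (-0.037 to 2.68) by day 6 in wild type, Tbx18 (-2.44 to 0.073) in R141C, and Tbx20 (-1.02 to 0.45) in the difference of genotype effects. The Tbx3 call in R141C was also lost under a median shift, with no filter and with a replicate block. The cause was not tested.

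Deviations of same-numbered replicates from their group means correlated at r of -0.14 to 0.34, the highest between R141C day 6 and R141C day 0, so the numbers were not taken to pair the cultures. The replicate block lowered the day 6 count to 0, against 17 without it, and ended the lincRNA call (adjusted p = 0.0926). With the wild-type day 0 numbers exchanged, 0 genes were called between genotypes at day 0. Dim probes limit Tbx5 at day 0, Tbx18 in R141C day 6 and wild type day 0, and Tbx2 in wild type day 0.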

Other observations

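Among the other T-box genes of the genome, 9 of 10 were tested, and 2 rose by day 6 in R141C, while 4 rose and 1 fell in wild type. Tbx6, a factor of presomitic mesoderm, rose by 2.85 in R141C and by 2.97 in wild type, and Eomes, which acts in early mesoderm and endoderm, rose by 2.15 and by 2.68. In R141C 1 of these genes was called on dropping R141C day 0 replicate 1. The 5 calls in wild type became 3 on dropping wild type day 0 replicate 1 or wild type day 6 replicate 1, and 2 on dropping wild type day 6 replicate 2. Between genotypes at day 6, 6 of the 9 were higher in R141C (median 0.30), and none passed the test of limma.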
